A study of Mus musculus with 2 samples.

Results

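Of the 18281 brainstem nuclei in the deposited table, 405 carried the cluster name micro, and 108 of these were also called microglia by the deposited reference label. The other 297 nuclei, which the reference label called something else, are described here. They were chosen by those labels alone, and comprised 133 nuclei of the WT library and 164 of the HET library. The reference label called 211 of them neurons, 79 oligodendrocytes, 3 astrocytes, 2 B cells, 1 a T cell and 1 a monocyte. None of the deposited clusters is named for oligodendrocyte precursors, so the first question was whether these nuclei held the genes of such cells, and the second was how HET and WT compared within them.

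Single-nucleus RNA sequencing was carried out on the brainstem of 1 HET and 1 WT littermate, both female C57Bl6 mice aged 41 days. HETs carry Scn1aA1783V on one allele, and were bred from a male with a floxed stop ahead of the mutant allele and a female with Sox2-Cre, a driver active in the early embryo. Seizure history was not a criterion for choosing the animals. The counts do not separate the mutant from the wild-type transcript, so the level of Scn1a does not check the genotype.

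Oligodendrocyte precursors are dividing glia of the adult brain that carry the growth factor receptor Pdgfra and the proteoglycans Cspg4 (NG2) and Vcan, and they lose these as they mature into myelin-forming oligodendrocytes. Microglia are the resident macrophages of the brain, and depend on signalling through the receptor Csf1r. Brainstem neurons are commonly sorted by the transmitter machinery they carry, with Slc17a6 (VGLUT2) in most excitatory neurons and Gad1, Gad2, Slc32a1 and Slc6a5 in inhibitory ones.

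With 1 library for each genotype there is no test between genotypes. A level is given as CPM, the number of unique molecular identifiers (UMIs) of a gene in every 1e+06 summed over nuclei, and a marker list as UMIs per 10000. Intervals at 95% are exact and cover counting error only, not the spread between animals. The summed UMIs of the members were 1022749 in WT and 1273437 in HET, with a median of 6391 and 7057.5 per nucleus. Both libraries shared 23 barcodes in all; 1 member had a barcode that also occurred in the other library, and no 2 members shared one. The authors' doublet score had a median of 0.141 in the members and 0.144 in all other nuclei.

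The members were not one population. A finer deposited clustering placed 185 in subcluster 18, 84 in subcluster 28 and 28 in subcluster 20. All 185 nuclei of subcluster 18 were labelled neurons, and in the coarse deposited clustering they formed a cluster of their own, apart from all 108 microglia. Subcluster 28 held 79 nuclei labelled oligodendrocytes, 4 labelled neurons, all from HET, and 1 labelled an astrocyte. Subcluster 20 held 105 of the 108 microglia, and of its 28 members 22 were labelled neurons. The clusters were made from the same expression values, so differences in level between them are descriptions and were not tested.

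The members took 1.44% of the WT library (1.20 to 1.70) and 1.82% of the HET library (1.55 to 2.12). Subcluster 18 made up 0.821% of WT nuclei (0.647 to 1.03) and 1.21% of HET nuclei (0.993 to 1.46). Subcluster 28 made up 0.497% of WT nuclei (0.364 to 0.662) and 0.421% of HET nuclei (0.298 to 0.578). In each case the intervals of the libraries overlapped. The microglia of the same cluster took 0.443% (0.318 to 0.600) and 0.743% (0.576 to 0.942).

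The genes that define oligodendrocyte precursors were at or near the background level in most members. Pdgfra had 21 UMIs in all 297 nuclei, or 9.15 CPM, and was seen in 12 nuclei. Cspg4 had 14 UMIs, or 6.10 CPM, in 9 nuclei. Vcan had 37 UMIs, or 16.1 CPM, in 11 nuclei. The deposited oligodendrocyte cluster, oligo, had nearly the same levels, at 9.25, 8.96 and 16.9 CPM.

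The same genes were far higher in a group of nuclei elsewhere in the series, almost all from WT. In subcluster 32, which the authors placed within the ependymal cluster epend.1, Pdgfra was at 791 CPM, Cspg4 at 340 CPM and Vcan at 1049 CPM. That subcluster held 50 nuclei, 47 of them from WT and 3 from HET, and the 3 HET nuclei had 3 UMIs of Pdgfra, 0 of Cspg4 and 2 of Vcan. Pdgfra was found in 76.0% of its nuclei, against 4.04% of the members, although its nuclei were shallower, with a median of 2030 UMIs against 6779. With every nucleus thinned to 1000 UMIs the shares were 53.3% and 0.808%, and 0.242% in the largest neuronal cluster, neuron.1, which should lack the gene.

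**Figure D1:**
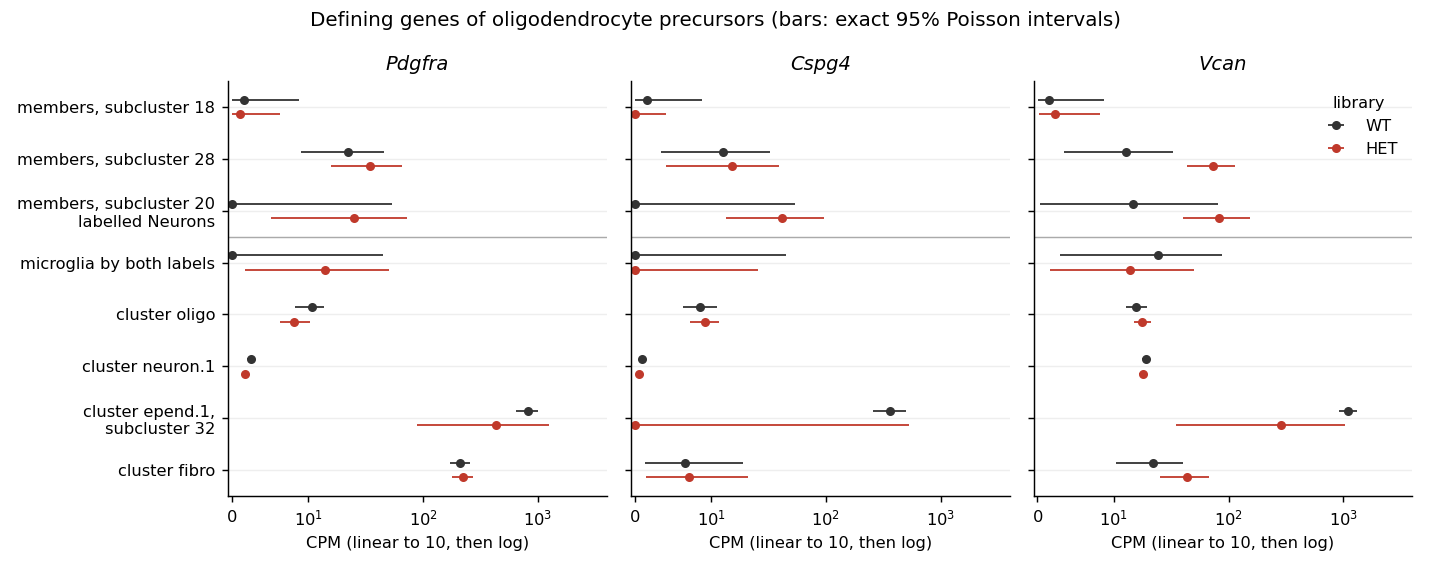
Levels of Pdgfra, Cspg4 and Vcan in CPM (axis linear to 10, then log), with 1 point for each library and exact 95% Poisson intervals, for groups of members (above the line) and other groups of nuclei (below it). Members of subcluster 18 lie near 0 in all 3 genes, and subcluster 32 of epend.1 is highest, with 791 CPM of Pdgfra over both libraries.

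Subcluster 18 held almost none of the defining genes. Pdgfra had 2 UMIs in 185 nuclei (1.32 CPM), Cspg4 had 1 (0.658 CPM) and Vcan had 3 (1.97 CPM). The lineage factors Olig1, Olig2 and Sox10 had 6, 3 and 3 UMIs, and Neu4, a sialidase of precursor cells, had none, where 3 UMIs, taken as the limit for a count of 0, would be 1.97 CPM. Some adhesion and surface genes of the precursor list were abundant: Lhfpl3 at 656 CPM, Tnr at 363 CPM and Pcdh15 at 1714 CPM. These were also abundant in neuron.1, at 769, 278 and 1239 CPM. They account for most of the 29.8 UMIs per 10000 that the whole 15-gene list reached in subcluster 18, a sum close to the 25.7 of neuron.1 and far below the 181 of subcluster 32.

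In subcluster 28 the precursor genes were concentrated in a few nuclei. Pdgfra, Cspg4 and Vcan had 16, 8 and 23 UMIs in its 84 nuclei, or 27.9, 13.9 and 40.0 CPM. At least 2 of the 3 genes were held by 6 members, 5 of them in subcluster 28 and 1 in subcluster 20, 3 from each library. These 6 nuclei carried 12 of the 21 Pdgfra UMIs, 9 of the 14 Cspg4 UMIs and 28 of the 37 Vcan UMIs of all members. In the other members the genes stood at 4.06, 2.25 and 4.06 CPM.

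All 6 nuclei also carried genes of other cells. In 5 of them there were between 70.5 and 94.3 UMIs of the precursor list per 10000, and the other, the deepest member of subcluster 28 with 27671 UMIs, had 7.59. In the same nuclei the myelin list stood between 67.5 and 202 and the microglia list between 14.1 and 36.5 per 10000. Their doublet scores were 0.310 to 0.367, above the median of 0.251 for subcluster 28. Across the series 143 nuclei held at least 2 of the 3 genes, 37 of them in subcluster 32, and 38 nuclei held all 3, of which 23 were in subcluster 32 and 3 were members. None of the 185 nuclei of subcluster 18 held UMIs of all 3, and 3 nuclei, taken as the limit for a count of 0, would be 1.62%. Since most members lacked the genes that define oligodendrocyte precursors, they are named below by their subcluster.

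**Figure D2:**
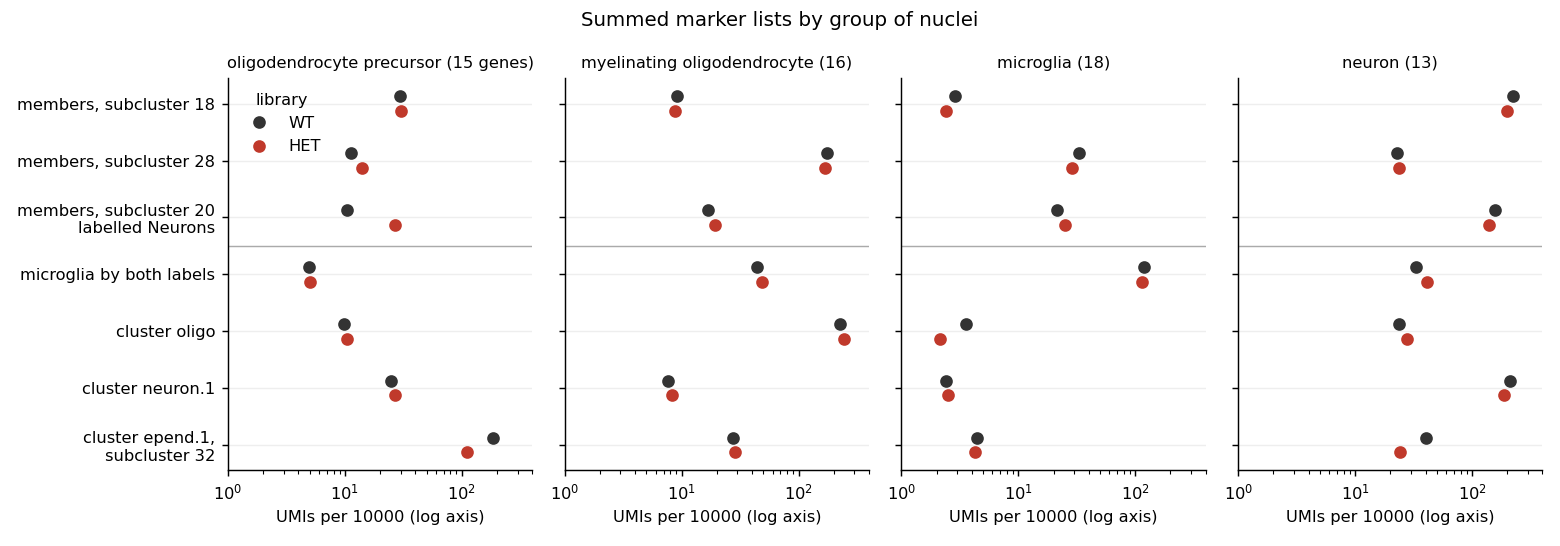
Summed UMIs per 10000 (log axis) of the precursor, myelin, microglia and neuron lists in each group of nuclei, with 1 point for each library. Subcluster 18 lies beside neuron.1 in all 4 lists, and subcluster 28 is high for both the myelin list (172) and the microglia list (31).

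Subcluster 28 carried genes of mature oligodendrocytes and of microglia together. Its myelin list reached 172 UMIs per 10000, 73.0% of the level in oligo, and was alike in WT (176) and HET (168). Its microglia list reached 31 per 10000, 27.0% of the level in the nuclei called microglia by both labels, at 32.9 in WT and 28.8 in HET. By comparison, oligo had 2.72 per 10000 of the microglia list, and the microglia had 47.1 of the myelin list.

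The myelin genes were those of mature cells. Mog, a glycoprotein of the outer myelin surface, was at 775 CPM (921 in oligo), and the transcription factor gene St18 at 2778 CPM (3899 in oligo). Sox10, the factor common to the whole oligodendrocyte lineage, was at 219 CPM in subcluster 28 and 246 CPM in oligo. Gpr17, a receptor of precursors committed to differentiate, had 3 UMIs, and the committed-precursor list stood at 9.61 per 10000 against 11.9 in oligo.

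The microglial genes were broad. The genes with the highest ratio to all other nuclei were led by Gm2629, Arhgap45, Ikzf1, Inpp5d and Siglech. Ikzf1, a transcription factor of blood cells, was at 198 CPM (723 in microglia). Inpp5d, the phosphatase SHIP1 of immune cells, was at 378 CPM (1491 in microglia) and was found in 86.9% of the nuclei. Csf1r was at 219 CPM (865 in microglia) and was found in 81.0% of the nuclei. The kinase receptor Mertk was at 409 CPM (1354 in microglia), and the fractalkine receptor Cx3cr1 at 317 CPM (1154 in microglia). In subcluster 18 Ikzf1 had no UMI, Csf1r was at 1.97 CPM, Mertk at 1.32, Inpp5d at 2.63 and Cx3cr1 at 19.7 CPM.

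Both sets of genes were found under the same barcodes rather than in separate barcodes of the subcluster. At least 10 UMIs of the myelin list and 10 of the microglia list were found in 75 of 84 nuclei, or 89.3% (80.6 to 95). The same was true of 0.217% of oligo nuclei, 28.7% of the microglia and 0.724% of neuron.1 nuclei. It was true of 0 of 185 nuclei in subcluster 18. With at least 5 UMIs of each list, the shares were 98.8% in subcluster 28 and 83.3% in the microglia. They were 0.868% in oligo, 11.9% in neuron.1 and 8.11% in subcluster 18. These shares move with depth, and the median was 5983 UMIs in subcluster 28, 2807 in oligo and 1932.5 in the microglia.

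**Figure D3:**
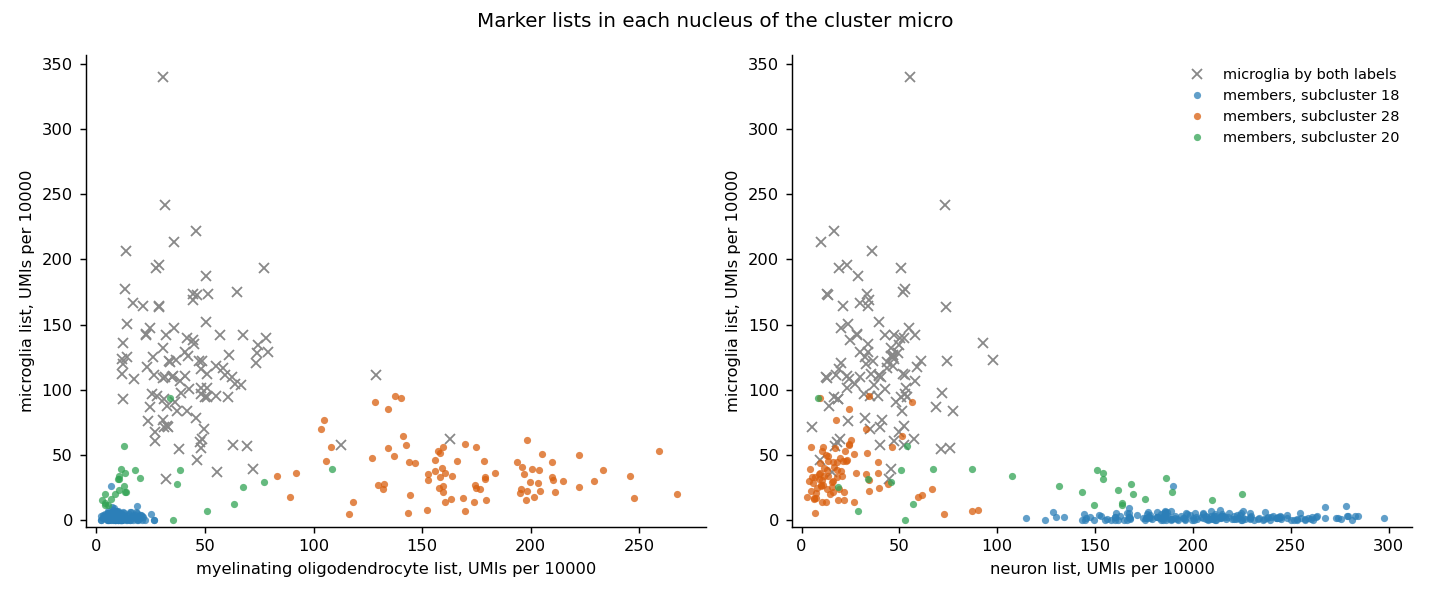
Each point is 1 nucleus of the cluster micro, placed by its UMIs per 10000 of the microglia list (vertical) and of the myelin list (left) or neuron list (right); crosses are the microglia by both labels. Nuclei of subcluster 28 hold both the microglia list (median 33.8) and the myelin list (median 165), and those of subcluster 18 lie along the neuron axis (median 207).

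Most genes well counted in subcluster 28 that differed between microglia and oligo lay between the 2 there. Of 909 genes with at least 100 UMIs in it, 522 differed by 2-fold or more between microglia and oligo, and for 480 of these (92.0%) its level lay between them. It lay above both for 39 genes and below both for 3, and above both by 2-fold or more for none of the 522. A gene low in subcluster 28 could not reach that minimum, so the count below both was limited by the rule. The doublet score exceeded the 95th percentile of its library in 6 of 46 WT nuclei (13%) and in 9 of 38 HET nuclei (23.7%), against 0.283% and 1.09% of oligo nuclei. Its median score was 0.251, against 0.0840 in oligo and 0.220 in the microglia. Whether these were single nuclei or more than one nucleus in a droplet was not tested.

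The 22 nuclei of subcluster 20 labelled neurons had the same form with another partner. Their neuron list stood at 146 per 10000, 72.6% of neuron.1, and their microglia list at 23.6, 20.6% of the microglia. Inpp5d was at 292 CPM and Mertk at 366 CPM. At least 10 UMIs of the neuron list and 10 of the microglia list were found in 20 of the 22 (90.9%). The same was true of 29.6% of the microglia and 1.19% of neuron.1 nuclei. With at least 5 UMIs of each list it was true of all 22, of 80.6% of the microglia and of 13.5% of neuron.1 nuclei. These shares also move with depth. Among genes with at least 50 UMIs in the 22 nuclei, 366 differed by 2-fold or more between microglia and neuron.1. For 320 of them (87.4%) the level lay between the 2, and for none above both by 2-fold or more. That minimum keeps out genes low in these nuclei. Their myelin list stood at 18.3 per 10000, 7.77% of oligo. At least 10 UMIs of the myelin list and 10 of the microglia list were found in 10 of the 22 (45.5%). The median doublet score was 0.269, and the median depth was 8172.5 UMIs.

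Subcluster 18 was the largest group of members, and it carried neuronal genes. The neuron list reached 208 UMIs per 10000, against 200 in neuron.1, and was 223 in WT and 198 in HET. Rbfox3, which encodes NeuN, was at 429 CPM (229 in neuron.1) and Syt1, the calcium sensor of synaptic vesicles, at 886 CPM (1152 in neuron.1). By these markers the subcluster was neuron-like. The microglia list stood at 2.58 per 10000, 2.25% of the microglia and close to the 2.44 of neuron.1. Csf1r had 3 UMIs and Inpp5d 4, and Siglech, Tmem119, Aif1 and Ikzf1 had none. P2ry12, a purine receptor of microglia, had 127 CPM, as it did in neuron.1 (135), and on mm10 it lies at chr3:59216272-59262871 inside the neuronal gene Med12l on the other strand, so reads of the pair may not be told apart.

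The transmitter genes of subcluster 18 were those of glutamatergic neurons. Slc17a6 was at 171 CPM (151 to 193) and was found in 68.6% of the nuclei, against 76.9 CPM and 37.9% in neuron.1. Slc17a7, the VGLUT1 transporter, was at 44.7 CPM (34.7 to 56.7) and was found in 30.8% of the nuclei, against 2.29 CPM in neuron.1 and 3.58 CPM in neuron.2. The inhibitory genes were lower than in neuron.1: Gad1 was at 5.92 CPM (38.9 in neuron.1), Gad2 at 15.8 (79.7), Slc32a1 at 12.5 (39.3) and Slc6a5 at 6.58 (91.9). Pvalb, a calcium-binding protein of many fast-firing neurons, was at 86.8 CPM (18.8 in neuron.1) and was found in 48.6% of the nuclei.

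The transcription factor genes Ebf1, Ebf2 and Ebf3, which act in the differentiation of neurons, were abundant in it. Ebf2 ranked 4 by ratio to all other nuclei among genes with at least 100 UMIs in the subcluster, and Ebf3 ranked 21. Ebf2, at chr14:67233292-67430918 on mm10, was at 867 CPM (820 to 915) and was found in 95.1% of the nuclei, and its level was 622 CPM in neuron.2, 101 CPM in the fibroblast cluster and 38.2 CPM in neuron.1. Ebf1 was at 2009 CPM, below neuron.2 (3664) and above neuron.1 (299). Ebf3 was at 337 CPM, against 282 in neuron.2 and 68.9 in neuron.1. Rorb, a nuclear receptor, was at 457 CPM, second to astrocytes (902) and above neuron.2 (94.8). The 3 RNAs that lie within Ebf2 on the opposite strand, Gm6878, 4930438E09Rik and 1700120O09Rik, were 3rd, 5th and 6th by ratio to all other nuclei among genes with at least 100 UMIs in the subcluster, and without stated use of the strand in counting they may share reads with Ebf2.

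Several other genes were also higher than in neuron.2 and neuron.1. Ntng1, a netrin-like membrane protein of axons, was at 2082 CPM and was found in all 185 nuclei (652 CPM in neuron.2, 375 in neuron.1). Vav3, an exchange factor for small GTPases, was at 1100 CPM (218 and 107), Sphkap, an anchor for protein kinase A, at 849 CPM (249 and 136), and Pde3a, a cyclic nucleotide phosphodiesterase, at 291 CPM (90.7 and 33.6). Srgap1, which acts downstream of the Slit receptors, was at 696 CPM (53.9 and 104). The cell-surface proteoglycan gene Gpc5 was at 4446 CPM (177 and 900).

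**Figure D4:**
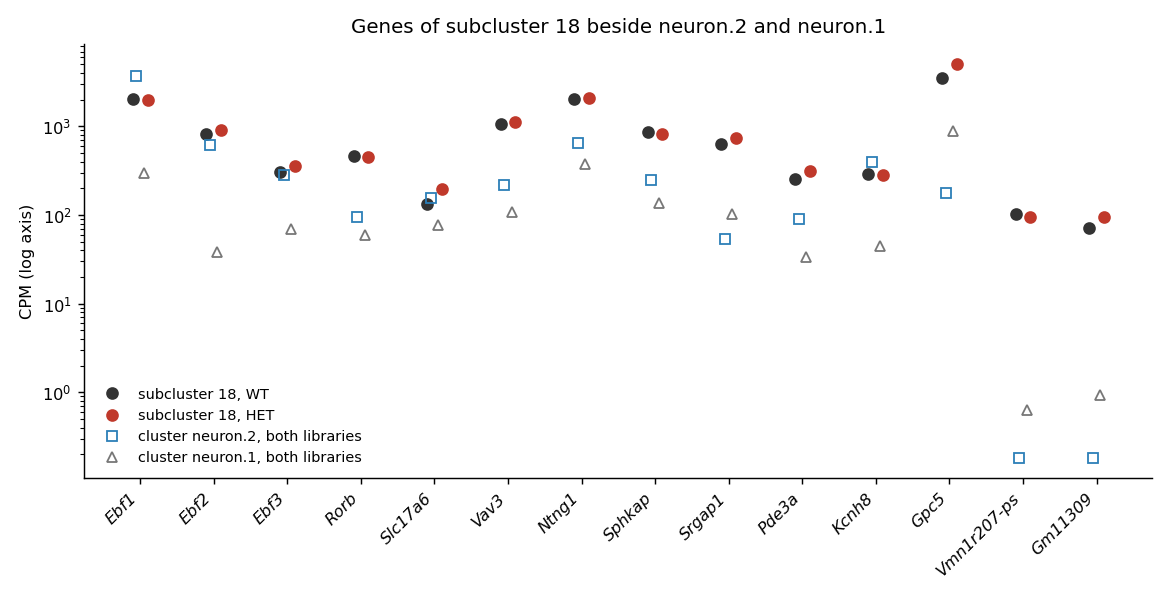
Levels in CPM (log axis) of 14 genes in subcluster 18, with 1 filled point for each library, beside neuron.2 (squares) and neuron.1 (triangles) over both libraries. Ebf2, Vav3, Ntng1 and Srgap1 were higher in subcluster 18 than in either cluster, whereas Ebf1 was highest in neuron.2 (3664 CPM).

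A few genes had a large share of all their UMIs in this subcluster. Vmn1r207-ps, at chr13:22722717-22729629, is a vomeronasal receptor gene, named as a pseudogene but annotated as protein coding. It had 149 of its 236 UMIs (63.1%) here, in 75 of 185 nuclei, against 59 nuclei in all the rest of the series. These were 30 of 76 nuclei in WT and 45 of 109 in HET. Of the neighbours of Vmn1r207-ps on chromosome 13, the antisense RNA Gm11309 had 55.6% of its UMIs here and Vmn1r196 59.1%. Vmn1r206 had 42.2%, in 53 nuclei here against 86 elsewhere. Usp43, a ubiquitin protease on chromosome 11, had 50.5% and A730009L09Rik on chromosome 16 had 51.6%. The vomeronasal receptor genes form a family of near copies, so their reads may be divided between members.

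Other genes of brainstem neurons were low. Foxp2, a forkhead transcription factor, was at 3.29 CPM against 83.7 in the neuronal clusters together, Htr2c, a serotonin receptor, at 37.5 against 707, and Kcnip4, a subunit of A-type potassium channels, at 293 against 3957. From neuron.2, the other cluster rich in Ebf1 and Ebf2, it differed most in the low levels of Glis1 (0.658 against 71.0 CPM), Arhgap6 (10.5 against 706), Dpp10 (240 against 8768) and Car10 (82.2 against 1813), and in the high levels of Vmn1r207-ps, Gm11309, Gpc5, Sdk1 and Grik3. Scn1a was at 650 CPM (610 to 692), above every deposited cluster, of which the nearest was neuron.3 at 554 (534 to 575), with neuron.1 at 459 (455 to 463).

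Over 5160 genes with at least 50 UMIs, the log levels of subcluster 18 correlated with those of neuron.3 (r = 0.876), neuron.1 (0.875) and neuron.2 (0.864), against 0.370 with microglia. For subcluster 28, over 2190 genes, the highest value was with oligo (0.719), followed by astrocytes (0.544), and microglia ranked 6 of 16 (0.435). These values describe profiles from the same libraries, across genes that are not independent. Among genes with at least 100 UMIs in subcluster 18, 1350 differed by 2-fold or more between microglia and neuron.1. Subcluster 18 lay between them for 675 (50.0%) and above both by 2-fold or more for 99 (7.33%). The same held for neuron.2 in 59.5% and 4.49% of its genes, with the same minimum in neuron.2.

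When all members were pooled, the 20 genes with the highest ratio to other nuclei were a mixture of both kinds. Microglial genes among them included Inpp5d (122 CPM), Dock8, Apbb1ip, Ly86, Mertk, Tgfbr1 and Cx3cr1. Ebf2 (583 CPM), Vav3 (747 CPM), Ntng1 (1424 CPM), Sphkap, Pde3a, Srgap1, Kcnh8 and Sel1l3 came from subcluster 18. Pooled values therefore depend on the mix of subclusters, and subcluster 18 supplied 57.1% of the WT members (48.3 to 65.7) and 66.5% of the HET members (58.7 to 73.6).

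HET and WT were compared over 11007 genes with at least 20 UMIs in the members. A ratio of 2-fold or more was found for 350 genes higher in HET (3.18%) and for 676 genes lower in HET (6.14%), and the median log2 ratio of all genes, HET over WT, was -0.08. In subcluster 18 alone 283 of 8843 genes were higher (3.2%) and 500 lower (5.65%). In subcluster 28 alone 300 of 5251 were higher (5.71%) and 396 lower (7.54%). These counts include genes with few UMIs: of 4345 genes with at least 100 UMIs in the members, 49 were higher and 91 lower. Values of the other neuronal nuclei, which come from the same libraries, are set beside some of the ratios below. A ratio given without such a value is not shown to be particular to its subcluster.

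Ttr was furthest lower in HET of the genes with at least 100 UMIs that the rule for named genes selects. Ttr, the thyroid hormone carrier made by the choroid plexus, stood at 325 CPM in the WT members against 41.6 in the HET members (log2 ratio -2.96, interval -3.41 to -2.54). In subcluster 18 it was found in 69 of 76 WT nuclei and 26 of 109 HET nuclei, with a log2 ratio of -2.87. The ratio in the neuronal clusters was -3.03. Bc1, a small RNA of neuronal dendrites, stood at 1485 CPM in WT against 439 in HET (-1.76), with -1.86 in subcluster 18 and -2.11 in the neuronal clusters.

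Rps16 and Rpl34, proteins of the small and large ribosomal subunits, stood at 91.9 and 78.2 CPM in WT against 25.9 and 22.8 in HET (log2 ratios -1.83 and -1.78). Cryab, a small heat-shock protein of oligodendrocytes, was at 74.3 CPM in WT and 22.8 CPM in HET over all members (-1.71). In subcluster 18 it had only 16 and 8 UMIs (-1.48), and in subcluster 28 it was found in 50% of WT and 36.8% of HET nuclei. Subcluster 28 made up 34.6% of the WT members and 23.2% of the HET members. Tubb4a, a tubulin of oligodendrocytes, was at 329 and 94.2 CPM (-1.80), with -1.50 in subcluster 18, -1.39 in subcluster 28 and -0.64 in the neuronal clusters. Smdt1, a subunit of the mitochondrial calcium uniporter (-1.56), Flii, an actin-binding protein (-1.50), and the RNAs Gm49179 (-1.76) and Gm36264 (-1.71) completed the 10 lowest by the rule for named genes.

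Among the 10 genes highest in HET, 7 are known by clone or model numbers or by a receptor family name. A230004M16Rik stood at 33.2 CPM in WT against 130 in HET (log2 ratio 1.97, interval 1.43 to 2.55), with 1.84 in subcluster 18 and 1.19 in the neuronal clusters. In subcluster 18 it was found in 28.9% of WT and 58.7% of HET nuclei. Olfr239 (1.52), Gm47661 (1.38), Gm21798 (1.35), Gm27016 (1.32), Gm6878 (1.25) and 4930595D18Rik (1.22) followed. The levels of Gm21798 were 206 CPM in WT against 525 in HET.

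The other 3 were Cadps2, Gabrb2 and Timp3. Gabrb2, the beta2 subunit of GABA-A receptors, was at 63.6 CPM in WT and 155 CPM in HET members (1.28, interval 0.87 to 1.71). It was at 84.9 and 172 CPM in subcluster 18 (1.02) and at 0.63 in the neuronal clusters, and was found in 35.5% of WT and 56.9% of HET nuclei of subcluster 18. Timp3, an inhibitor of matrix proteases, was at 55.7 and 130 CPM (1.23), with 1.07 in subcluster 18 and 0.53 in the neuronal clusters. Cadps2, a factor for release of dense-core vesicles, was at 22.5 and 67.5 CPM (1.59), with 47 of its 86 HET UMIs in subcluster 28.

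**Figure D5:**
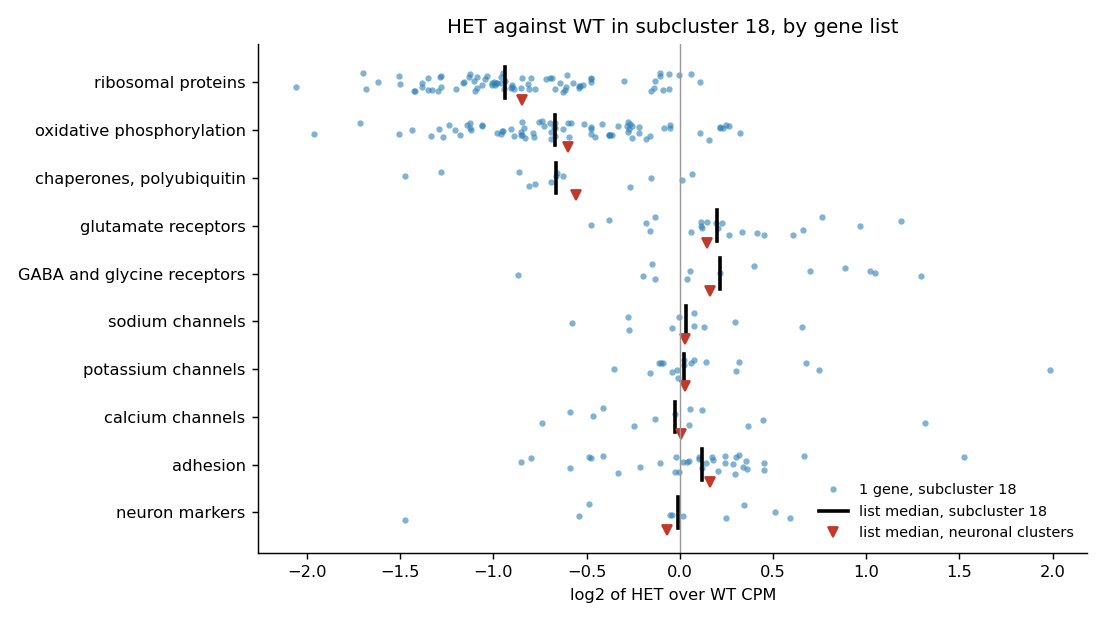
Log2 ratio, HET over WT, of each gene of 10 lists in subcluster 18 (points) with the list median there (bars) and in the other neuronal nuclei (triangles); vertical scatter within a list only separates points. The ribosomal list has a median of -0.94 and the sodium channel list a median of 0.03 in subcluster 18.

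Most ribosomal protein genes were lower in HET. All 80 measured in the members had a lower level in HET, 35 of them by 2-fold or more against 6.14% of all genes, with a median log2 ratio of -0.90. In subcluster 18 the count was 77 of 79 (median -0.94, 31 by 2-fold or more, against 5.65% of all genes), and in subcluster 28 it was 62 of 65 (median -0.74). The other neuronal nuclei had a median of -0.85 and oligo -0.80. The deposited percentage of ribosomal protein counts had a median of 0.610% in WT and 0.338% in HET nuclei of subcluster 18. In all nuclei outside the members it was 0.697% and 0.408%, so it was lower in HET there as well. With 1 library for each genotype, library and genotype cannot be told apart. That percentage is made of ribosomal protein counts, as the list is, so it is not a separate measurement. The cause of the difference was not tested.

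Genes of oxidative phosphorylation, the mitochondrial respiratory chain and ATP synthase, were lower in HET for 69 of 77 in subcluster 18 (median -0.67), against 4940 of all 8843 genes. Of the 77, 16 were lower by 2-fold or more, against 5.65% of all genes, and the list had a median of -0.60 in the other neuronal nuclei. Ndufb5, a subunit of complex I, was at 73.9 CPM in WT and 26.0 CPM in HET (-1.51), whereas Uqcrc2 of complex III was at 48.7 and 54.3 CPM (0.16). Chaperone and polyubiquitin genes were lower for 11 of 13 (median -0.67), with -0.56 in the other neuronal nuclei. Dnaja1, a co-chaperone, was one of the 2 exceptions, at 51.9 and 54.3 CPM (0.07).

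Of the 12 genes of the sodium channel list, 10 had enough UMIs in subcluster 18. These were 9 genes of voltage-gated channels and the leak channel gene Nalcn (0.13). Their median log2 ratio was 0.03, with 5 of 10 higher in HET and 5 lower. Over all 8843 genes there, 3903 were higher, with a median of -0.07. Scn1a, the gene mutated in HETs, had 421 UMIs in WT and 568 in HET, or 662 and 642 CPM (log2 ratio -0.04, interval -0.23 to 0.14), and was found in 71 of 76 and 106 of 109 nuclei. Scn8a and Scn2a, the other main alpha subunits of brain neurons, were at -0.01 (-0.26 to 0.25) and 0.08 (-0.24 to 0.40). Scn9a was at 706 and 1111 CPM (0.66, interval 0.49 to 0.82), with 0.47 in the other neuronal nuclei, and Scn3a was lowest at -0.58 (-1.24 to 0.08).

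Among receptors for inhibitory transmitters, 9 of 13 were higher in HET in subcluster 18 (3903 of all 8843 genes were), with a median of 0.22 against -0.07 for all genes, and 3 were past 2-fold, against 3.2% of all genes. Among those 3 were Gabrb2 (1.02) and Gabrb1 at 48.7 and 101 CPM (1.05), both subunits of GABA-A receptors. A single HET nucleus held 21 of the 89 HET UMIs of Gabrb1. Gabra2 (0.70) and Gabrg3 (0.89) were also higher, while Gabbr1, a subunit of the GABA-B receptor, was at 99.0 and 54.3 CPM (-0.87). The glycine receptor genes Glra1 and Glrb were at -0.13 and -0.20, with intervals that included 0. The list had a median of 0.16 in the other neuronal nuclei.

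Glutamate receptor genes were higher for 17 of 22, against 3903 of all 8843 genes in subcluster 18, with a median of 0.20, and 0.14 in the other neuronal nuclei. Grin3a, an NMDA receptor subunit, was at 116 and 227 CPM (0.97, interval 0.58 to 1.37), with 0.12 in the other neuronal nuclei. The kainate receptor gene Grik3 was at 112 and 176 CPM (0.66), and Grm5, a metabotropic receptor, at 1370 and 1725 CPM (0.33). Gria2, the AMPA receptor subunit that limits calcium entry, was at 1702 and 1524 CPM (-0.16). One gene of the list, Grm4, was past 2-fold, from 6 and 19 UMIs.

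Potassium channel genes had a median of 0.02, with 10 of 18 higher. Kcna6, a Kv1 subunit, was at 97.4 and 156 CPM (0.68), and Kcna4, at 1.98, rested on 4 and 22 UMIs. The Kv1 genes Kcna1 and Kcna2 and the Kv3 gene Kcnc1 lay between -0.11 and -0.01. Calcium channel genes had a median of -0.03, with 6 of 13 higher. Cacna1g, a T-type subunit, had the highest ratio and was the only one past 2-fold, from 11 and 38 UMIs (1.31, interval 0.32 to 2.43). Cacna1d, an L-type subunit, was at 365 and 218 CPM (-0.74, interval -1.02 to -0.46) and Cacna1a, the P/Q-type subunit, at 798 and 578 CPM (-0.47, interval -0.65 to -0.29), while Cacna1c was at 0.37 (0.14 to 0.60). Adhesion genes were higher for 23 of 35, with a median of 0.12, and 0.16 in the other neuronal nuclei. Over all genes of subcluster 18, 3903 of 8843 were higher, with a median of -0.07.

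Of the genes high in subcluster 18, some were at close levels in both libraries and others were not. Ebf1 was at 2044 CPM in WT and 1984 CPM in HET (-0.04, interval -0.15 to 0.06), Ebf2 at 816 and 903 CPM (0.15, interval -0.01 to 0.31), Vav3 at 1075 and 1118 CPM (0.06), Ntng1 at 2062 and 2097 CPM (0.02) and Rorb at 459 and 456 CPM (-0.01). Gpc5 was higher in HET, at 3536 and 5101 CPM (0.53, interval 0.46 to 0.60), and Gm6878, antisense to Ebf2, had 33 UMIs in WT and 102 in HET (51.9 and 115 CPM). Slc17a6 was at 132 and 199 CPM (0.59, interval 0.21 to 0.98), and Pvalb at 116 and 65.6 CPM (-0.83, interval -1.35 to -0.31).

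Single nuclei held a large part of the UMIs of a few genes in subcluster 18. Dpp10, a modulator of A-type potassium channels, was at 135 and 315 CPM (1.22) and was found in 44.7% of WT and 66.1% of HET nuclei, and 1 HET nucleus held 63 of its 279 HET UMIs. For Clstn2, a synaptic cadherin-like protein (-1.33), 1 WT nucleus held 39 of the 78 WT UMIs, and for Gfod2 (-1.22) 1 WT nucleus held 28 of 121. These genes were at 0.05, 0.09 and -0.20 in the other neuronal nuclei.

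In subcluster 28, myelin genes were higher in HET for 6 of 16, against 2437 of all 5251 genes, with a median of -0.14, and none of them was past 2-fold. Microglial genes were higher for 5 of 16, with a median of -0.27. C1qa, a complement subunit, was at 259 CPM in WT and 122 CPM in HET (-1.08, interval -1.72 to -0.48), whereas P2ry12 was at 253 and 294 CPM (0.22). Over all members these lists had medians of -0.55 and -0.56, with 15 of 16 genes lower in HET in each, against 6361 of all 11007 genes. Subcluster 28, where both lists are high, made up 34.6% of the WT members and 23.2% of the HET members, so the pooled medians cannot be told apart from that difference in make-up.

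The neuron list summed to 22.7 UMIs per 10000 in WT and 23.8 in HET nuclei of subcluster 28, but some neuronal transcripts differed widely. Kcnip4 had 32 UMIs in WT (102 CPM) and 501 in HET (1914 CPM), while Syt1 was at 60.8 and 386 CPM and Rbfox3 at 12.8 and 141 CPM. The 4 nuclei labelled neurons were all from HET, and a single nucleus held 124 of the Kcnip4 UMIs. With only the nuclei labelled oligodendrocytes, Kcnip4 was at 106 and 1188 CPM and Syt1 at 62.7 and 225 CPM. Vcan had 4 UMIs in 3 WT nuclei and 19 UMIs in 3 HET nuclei, and Slco1a4, a transporter of brain endothelium, had 23 UMIs in 3 WT nuclei and 1 in HET. Cntn5, an adhesion protein, was at 205 and 42.0 CPM, with 60 of its 64 WT UMIs in 1 nucleus.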

How the data were processed

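Nuclei were profiled with 10x Genomics 3′ chemistry, and the authors aligned reads with Cell Ranger (version not given in the sources used here) to its mouse mm10 reference. The authors processed the nuclei in Seurat 4.1, removed mitochondrial and hemoglobin genes and doublets, and deposited raw UMI counts for 25556 genes in 18281 nuclei, with clusters, reference labels, percent of ribosomal counts and a doublet score for each nucleus. The caller behind the deposited score is not given in the sources used here, and no caller was run again.

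Members were nuclei with cluster micro and a reference label other than Microglia. The members and gene lists were chosen with earlier results of these data known, and the views by subcluster and their leading genes were added after the data were seen. UMIs were summed over nuclei of a library and divided by their total to give CPM, with exact Poisson intervals. Shares have exact Clopper-Pearson intervals, and HET over WT ratios exact conditional binomial intervals, at 95%. The limit given for a count of 0 is 3 counts. In ratios a gene with no UMI in a library was set to 3 counts there, and genes with under 20 UMIs were left out. The scripts were tested on simulated data.

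Genes named were the cell type markers; the 20 with the highest ratio of members to other nuclei (at least 200 UMIs); the 10 highest and 10 lowest in HET over WT (at least 100 UMIs, with the same sign in nuclei labelled Neurons and Oligodendrocytes); and the extremes of the lists (at least 100 UMIs) with Scn1a. Genes of subclusters 18 and 28 outside these were chosen after their values were seen. Some genes that the rule selects are not reported here. Comparisons were repeated with other scalings, minimum counts, weights of nuclei, depths, doublet scores and labels. Gene positions are from GENCODE vM21 on mm10. Python 3.11.15, numpy 2.4.6, scipy 1.17.1, pandas 2.3.3 and matplotlib 3.10.9 were used.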

Additional observations from a re-analysis of the deposited data

How the results depend on the processing

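No paired analysis was possible because each genotype has 1 library. Leaving out a replicate was likewise not possible. As a share of nuclei outside the deposited neuronal clusters, themselves included, the members were 4.23% in WT and 4.52% in HET, and members with a UMI of Pdgfra, Cspg4 or Vcan were 0.130% and 0.122% of the libraries.

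Without the 5% highest doublet scores, Pdgfra, Cspg4 and Vcan in the members were at 4.06, 3.04 and 4.56 CPM. In nuclei labelled Neurons, Pdgfra and Vcan were at 3.44 and 8.02 CPM. In those labelled Oligodendrocytes the 3 genes were at 28.3, 15.1 and 43.4 CPM, in subcluster 18 at 1.32, 0.658 and 1.97, and in subcluster 28 at 27.9, 13.9 and 40.0. As a mean over nuclei the precursor list was 26.9 and 10.8 per 10000 in nuclei labelled Neurons and Oligodendrocytes (28.4 and 12.8 from summed UMIs), and the myelin list was 13.1 and 172 (12.2 and 175).

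With a minimum of 50 UMIs, 129 of 7284 genes were higher in HET by 2-fold or more and 258 lower. In subcluster 28 that minimum gave 82 higher and 63 lower of 2190. The minimum of 20 UMIs, which gave 676 lower of 11007 in all members, was kept for the following sets. Lower genes numbered 384 in nuclei labelled Oligodendrocytes, 396 of 5251 in subcluster 28 and 173 in nuclei with a UMI of the 3 precursor genes. The median of the ribosomal list was -0.75, -0.74 and -1.24 in the same sets, and that of oxidative phosphorylation was -1.12 in the last. Directions reversed in 5 cases. In nuclei labelled Neurons the myelin list was at 0.70 and the microglia list at 0.23. That label included 4 nuclei of subcluster 28, all from HET, with 66 to 169 UMIs of the myelin list each. In subcluster 18, where all nuclei carried that label, the 2 lists were at -0.39 and -0.10. In nuclei with a precursor gene the chaperone list was at 0.037, Gm27016 at -0.44 and Gm6878 at -0.021. These sets hold fewer nuclei, and the causes were not tested. Of 200 values of the 20 named genes under the alternatives, 160 stayed within the counting interval, 38 moved and 2 reversed.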
